A study of Mus musculus with 5 samples.

Results

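Histone genes were taken from the table of all time points by symbol alone, as every gene whose symbol begins with Hist1h, Hist2h, Hist3h, Hist4h, H2af or H3f3. This gave 72 of 13911 genes. The rule uses symbols and no measured value. Of them, 63 were replication-dependent genes (5 encode linker histone H1, 17 encode H2A, 16 encode H2B, 12 encode H3 and 13 encode H4). The other 9 carry replacement histone symbols. They are H3f3a and H3f3b for H3.3, H2afz and H2afv for H2A.Z, H2afx for H2A.X, H2afy and H2afy2 for macroH2A, H2afj, and H3f3aos, a transcript annotated as antisense to H3f3a. Hist1h2al is annotated as a processed pseudogene, and Hist2h2bb.1 is a repeated symbol that could be placed at no gene.

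The cells were OT-I CD8+ T cells of the strain C57BL/6-Tg(TcraTcrb)1100Mjb/J, which all carry the same transgenic receptor for the ovalbumin peptide SIINFEKL. They were taken from spleen and lymph nodes, sorted by FACS and profiled on the 10x Genomics droplet platform at 0 h (2952 cells), before any co-culture, and again 24 h and 72 h into it. Co-cultures held peptide-pulsed dendritic cells (DCs) with MDSCs (myeloid-derived suppressor cells), which are immature and restrain T cell responses, or pulsed DCs alone. The DC+MDSC libraries held 2247 cells at 24 h and 4942 cells at 72 h, and the DC libraries 1562 and 1926 cells. The age and number of the mice, and the kind of MDSC, are not given in the sources used here, and no library came from cells cultured without DCs. Each group was 1 library, so a difference between groups cannot be told apart from a difference between libraries or cultures. No test was possible and no value has a replicate check.

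Values were whole numbers already adjusted for depth by the authors, so the number of molecules behind a level is unknown. A level, given in CPM throughout, is the sum of a gene's adjusted numbers over the cells of a library, scaled so that all genes of that library add up to 1000000. Totals per cell lay between 13061 and 15988, and the median cell had 2210 genes above 0 at 0 h and between 3111 and 3621 in the co-cultures. The 0 h library stood apart: of its genes with a level of at least 50 CPM, 58 had a ratio of variance to mean across cells under 0.5, and 0 genes had in each other library. No histone gene was among the 58, but 77.1% of the 0 h values above 0 of the replication-dependent genes equalled 2 and 15.8% equalled 1, whereas 71.6 to 85.1% equalled 1 in the co-culture libraries. Ratios against 0 h and shares of 0 h cells above 0 carry a bias of unknown size. Of the 13519 distinct cell barcode sequences, 110 (0.814%) occurred in more than 1 library. The 5 CD8 T cell markers in the table summed to 5568 CPM at 0 h, to 1613 and 1567 CPM at 24 h with and without MDSCs, and to 3397 and 3734 CPM at 72 h with and without MDSCs. The 6 myeloid markers summed to 18.9 to 111 CPM, and Lyz2, S100a8, S100a9 and Itgam were at 0 in the 24 h DC library. The 5 dendritic markers in the table summed to 284 to 680 CPM. H2-Ab1, Cst3, Ccr7, Cd79b and Ly6c2 were above 0 in 17.5 to 89.1% of the 72 h DC cells. They are not in the next count, which used only part of the markers. Cells above 0 for a counted marker of another cell type made up 9.70% of the 24 h DC+MDSC library, against 2.56% of the 24 h DC library. At 72 h such cells were 3.32% with MDSCs, against 1.35% without. Without these cells, the sums below kept their direction and the counts stayed within 1.5 times their value. This check does not cover H2-Ab1, which ran opposite to the counted markers at 72 h.

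Replication-dependent histone genes supply the nucleosomes that wrap newly copied DNA, and are transcribed mainly in S phase from gene clusters. Their mRNAs normally end just after a conserved stem-loop, which SLBP binds, in place of a poly(A) tail. Replacement histone genes are transcribed through the whole cell cycle, their mRNAs are polyadenylated, and their proteins enter chromatin largely apart from replication. Droplet kits copy RNA from poly(A) stretches. They tag 1 end of each transcript, so levels were not divided by length. The level of a replication-dependent gene is therefore that of its captured transcripts and says nothing of the amount of the gene's mRNA, and the levels of both classes cannot be read as relative amounts of histone mRNA.

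The stem-loop is shown because it parts the 2 classes in the annotation and bears on what such libraries capture. In GENCODE release M21 transcripts (GRCm38), 71 of the 72 symbols were found. The motif GGNNNTTNNNANNNCC, with 6 paired bases in the stem, was searched on the transcript strand within 150 bases after the stop codon. It lay there in 43 of the 48 Hist members with an annotated 3′ untranslated region (89.6%). It was found in 1 of 8 replacement members (12.5%) and in 6 of 20905 other protein-coding genes (0.0287%). The first line below is the form of 24 members, among them Hist1h2ap, Hist1h2ag, Hist1h2bj, Hist1h1e and Hist1h3a. The second line is shared by 7 H4 genes such as Hist1h4d, the third line by 5 genes such as Hist1h2bk, Hist1h3c and Hist1h3e, and the fourth is that of H2afx, which has both a stem-loop and a long annotated end. Capitals mark the 2 arms of the stem and lower case the loop.
24 replication-dependent genes: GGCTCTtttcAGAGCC
H4 genes: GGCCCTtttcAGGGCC
Hist1h2bk and others: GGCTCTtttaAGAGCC
H2afx: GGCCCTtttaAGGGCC
The annotated transcript of Hist1h2ap stops 3 bases after its stem-loop, and those of Hist1h2ag and Hist1h2bj 23 bases after it. Those of Hist1h1c, Hist1h1e and H2afx run on for 840, 1153 and 822 bases. Of the members with a Hist symbol, 21 were annotated to end within 100 bases of the stem-loop, 22 ran more than 100 bases past it, and 19 had no stem-loop in the annotated end, which for Hist1h1b means that the annotation holds no 3′ untranslated region.

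Most of the replication-dependent genes lie on chromosome 13 (GRCm38). Apart from the pseudogene, 21 lie between positions 21715763 and 22043676 and 28 between 23531050 and 23764406. Within these blocks and on chromosome 3, 9 pairs of H2A and H2B genes start back to back within 176 to 302 bases of each other. The window around the start of Hist1h2bj (an H2B gene on the plus strand, 250 bases before to 50 bases after the start, RefSeq on GRCm38.p6) shares 252 of its 300 bases with that of Hist1h2ag (an H2A gene on the minus strand). It lies at chr13:22042948-22043247. Capitals mark CCAAT or its reverse complement ATTGG, the box that NF-Y binds, of which it holds 5. The window of Hist1h1b, an H1 gene at chr13:21780576-21780875 on the minus strand, holds 3 of them, with a TATAAA box and the AAACACAA element known from H1 promoters in capitals too. These promoters are shown because their genes took opposite courses after 24 h.
Hist1h2bj: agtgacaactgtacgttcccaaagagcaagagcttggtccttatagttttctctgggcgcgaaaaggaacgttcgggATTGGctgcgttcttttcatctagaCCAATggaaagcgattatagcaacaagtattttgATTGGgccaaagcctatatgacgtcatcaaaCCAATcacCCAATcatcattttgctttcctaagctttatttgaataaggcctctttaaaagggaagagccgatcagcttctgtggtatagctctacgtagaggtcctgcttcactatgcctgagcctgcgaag
Hist1h1b: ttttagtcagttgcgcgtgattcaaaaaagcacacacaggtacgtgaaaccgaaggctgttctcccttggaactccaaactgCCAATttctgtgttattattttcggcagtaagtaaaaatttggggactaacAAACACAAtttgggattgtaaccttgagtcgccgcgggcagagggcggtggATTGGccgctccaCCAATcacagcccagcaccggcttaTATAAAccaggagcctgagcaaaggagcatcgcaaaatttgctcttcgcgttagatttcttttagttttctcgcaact
Of the 72 members, 60 had such a window. CCAAT on either strand was in all 5 H1, 15 H2A, 13 H2B and 10 H3 windows and in 4 of 5 replacement windows, but in 3 of 12 H4 windows (25.0%), against 37.4% of 32851 RefSeq promoters. AAACACAA was in 3 of 5 H1 windows and 1.93% of all promoters. The octamer ATTTGCAT, the box of OCT1, was in 6 of 15 H2A and 6 of 13 H2B windows, in 0 of the H1, H3, H4 and replacement windows, and in 1.74% of all promoters. TATAAA was in 4 of 5 H1 windows, 0 of 5 replacement windows and 13.6% of all promoters.

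The replication-dependent genes were low before stimulation and several-fold higher in all co-culture libraries. The replacement genes differed less in summed level, which was lowest at 0 h and highest in the 72 h DC library. The 63 replication-dependent genes together were at 89.4 CPM at 0 h, at 567 and 355 CPM at 24 h with and without MDSCs, and at 485 and 543 CPM at 72 h with and without MDSCs. The 9 replacement genes summed to 3797 CPM at 0 h, to 4431 and 3893 CPM at 24 h with and without MDSCs, and to 4469 and 5157 CPM at 72 h with and without MDSCs. Replication-dependent transcripts thus made up 2.30% of both sums at 0 h, 11.3% and 8.36% at 24 h with and without MDSCs, and 9.79% and 9.52% at 72 h with and without MDSCs. The lowest co-culture library was well above 0 h, and the 24 h DC+MDSC library was the highest in this share.

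Few replication-dependent genes carried that sum. Only 18 of the 63 reached 10 CPM in any library, and 45 did not, with a highest level of 8.68 CPM. Those 45 together were at 27.5 CPM at 0 h and at 80.9 to 100.0 CPM in the co-cultures, 30.8% of the replication-dependent sum at 0 h and 16.7 to 24.8% after it. All 5 H1 genes passed 10 CPM in some library, but 4 of 17 H2A, 4 of 16 H2B, 3 of 12 H3 and 2 of 13 H4 genes did. Among the replacement genes 7 of 9 did, while H2afy2 and H3f3aos stayed at 0.480 CPM or lower. Many histone genes are near-identical copies of each other, so a read placed on a named H2A, H2B, H3 or H4 gene may stem from a paralog, and the split of a class over its genes is uncertain. This holds less for sums over a class.

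**Figure D1:**
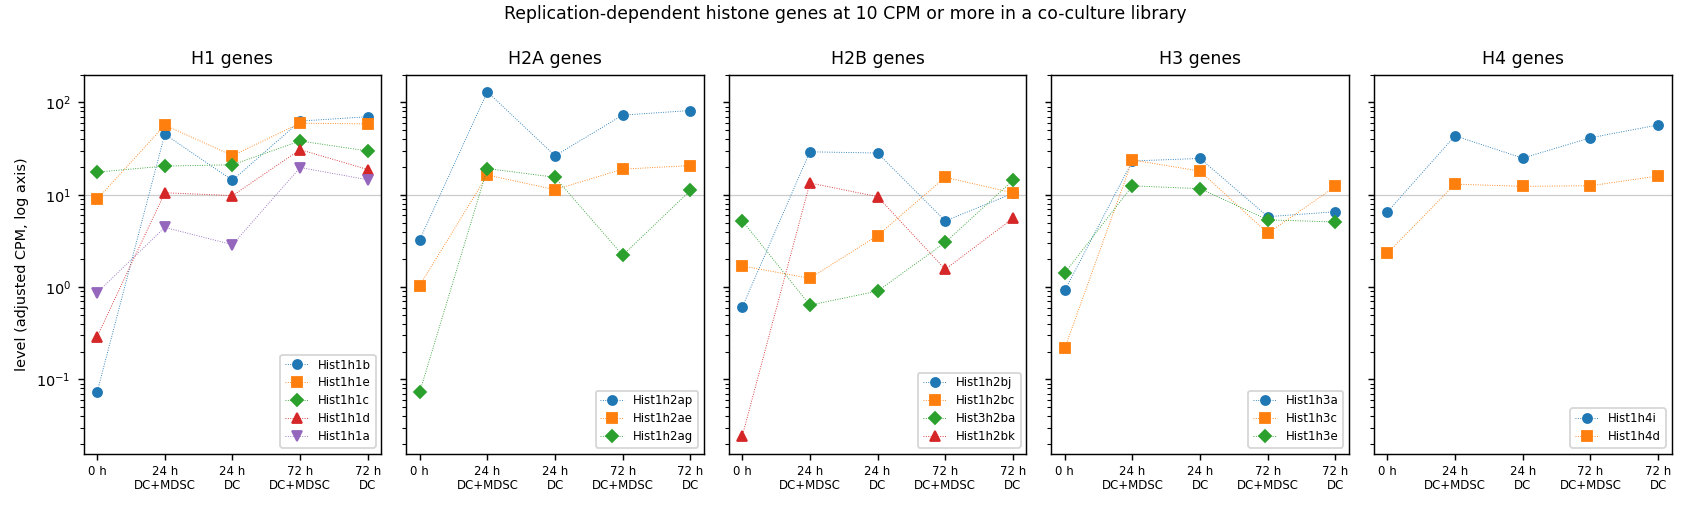
Level in adjusted CPM (log axis) of the 17 replication-dependent genes at 10 CPM or more in a co-culture library, by class, in each of the 5 libraries. Each point is 1 library, dotted lines join the points of a gene, and the grey line marks 10 CPM. H1 genes stood highest at 72 h, the H3 genes at 24 h, and Hist1h2ap was at 131 CPM in the 24 h DC+MDSC library.

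The linker histone genes encode H1 proteins, which bind DNA where it enters and leaves the nucleosome. As a class they were at 27.8 CPM at 0 h, at 138 and 74.8 CPM at 24 h with and without MDSCs, and at 211 and 192 CPM at 72 h with and without MDSCs. Both 72 h libraries were above both 24 h libraries. Hist1h1b was at 0.0726 CPM at 0 h, where 1 of 2952 cells was above 0, at 45.3 and 14.4 CPM at 24 h with and without MDSCs, and at 62.9 and 70.2 CPM at 72 h with and without MDSCs. Hist1h1e was at 8.93 CPM at 0 h, at 56.9 and 26.6 CPM at 24 h with and without MDSCs, and at 59.6 and 58.6 CPM at 72 h with and without MDSCs. In both genes the 24 h DC library was the lowest of the co-cultures. Hist1h1c was the replication-dependent gene with the highest level before stimulation, at 17.6 CPM at 0 h, 20.5 and 21.2 CPM at 24 h with and without MDSCs, and 38.3 and 29.8 CPM at 72 h with and without MDSCs. Hist1h1d and Hist1h1a reached their highest levels, 30.8 and 19.8 CPM, in the 72 h DC+MDSC library.

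The H2A and H2B genes encode the dimer partners at the outside of the nucleosome core. H2A genes summed to 22.1 CPM at 0 h, to 200.4 and 82.7 CPM at 24 h with and without MDSCs, and to 128 and 156 CPM at 72 h with and without MDSCs. Most of the excess at 24 h with MDSCs was Hist1h2ap, which was at 3.24 CPM at 0 h, at 131 and 26.5 CPM at 24 h with and without MDSCs, and at 73.0 and 81.8 CPM at 72 h with and without MDSCs. It was above 0 in 65.6% of the cells (95% exact Clopper-Pearson interval 63.6 to 67.6, counting error only) at 24 h with MDSCs, against 24.9% (22.8 to 27.1) without. No cells known to be free of these transcripts were at hand, so the share that free RNA adds was not tested. Hist1h2ag was at 0.0726 CPM at 0 h, at 19.3 and 15.5 CPM at 24 h with and without MDSCs, and at 2.21 and 11.1 CPM at 72 h with and without MDSCs, so that the 72 h DC+MDSC library stood lowest of the co-cultures. Hist1h2ae was at 1.04 CPM at 0 h, at 16.4 and 11.4 CPM at 24 h, and at 19.0 and 20.7 CPM at 72 h with and without MDSCs. Hist3h2a, at 10.8 CPM at 0 h and 2.44 to 4.94 CPM in the co-cultures, had its highest level before stimulation. Its share of cells above 0 differed less, at 7.72% at 0 h and 3.60 to 6.47% in the co-cultures. The level at 0 h carries the bias named above.

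H2B genes summed to 12.97 CPM at 0 h, to 72.8 and 69.8 CPM at 24 h with and without MDSCs, and to 51.0 and 68.3 CPM at 72 h with and without MDSCs. Their members took different courses. Hist1h2bj was at 0.605 CPM at 0 h, at 29.2 and 28.4 CPM at 24 h with and without MDSCs, and at 5.21 and 10.4 CPM at 72 h with and without MDSCs, and both 24 h libraries were above both 72 h libraries. Hist1h2bc ran the other way, at 1.69 CPM at 0 h, 1.25 and 3.62 CPM at 24 h with and without MDSCs, and 15.5 and 10.5 CPM at 72 h with and without MDSCs. Hist3h2ba was at 5.25 CPM at 0 h, at 0.638 and 0.905 CPM at 24 h with and without MDSCs, and at 3.05 and 14.4 CPM at 72 h with and without MDSCs.

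H3 and H4 form the tetramer at the centre of the nucleosome. H3 genes were at 4.84 CPM at 0 h, at 75.8 and 67.9 CPM at 24 h with and without MDSCs, and at 28.6 and 37.3 CPM at 72 h with and without MDSCs. Both 72 h libraries lay below both 24 h libraries, as they did by less for H2B. Hist1h3a was at 0.919 CPM at 0 h, 23.3 and 24.8 CPM at 24 h with and without MDSCs, and 5.79 and 6.55 CPM at 72 h with and without MDSCs. Hist1h3c was at 0.218 CPM at 0 h, at 23.9 and 18.0 CPM at 24 h, and at 3.84 and 12.3 CPM at 72 h with and without MDSCs. Hist1h3e was at 1.43 CPM at 0 h, at 12.5 and 11.6 CPM at 24 h, and at 5.36 and 5.07 CPM at 72 h with and without MDSCs. Of these H3 genes, Hist1h3c was the one whose 72 h libraries stood apart from each other. H4 genes summed to 21.7 CPM at 0 h, to 80.6 and 59.7 CPM at 24 h with and without MDSCs, and to 65.6 and 88.9 CPM at 72 h with and without MDSCs. Hist1h4i was at 6.51 CPM at 0 h, 43.5 and 25.0 CPM at 24 h with and without MDSCs, and 41.4 and 57.1 CPM at 72 h with and without MDSCs. Hist1h4d was at 2.32 CPM at 0 h and between 12.3 and 15.98 CPM in the co-cultures. Hist1h4b was at 0.605 CPM at 0 h, at 6.41 and 6.25 CPM at 24 h, and at 1.35 and 1.89 CPM at 72 h with and without MDSCs.

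The replacement genes did not share 1 course over time. H2afz, which encodes the H2A.Z found at promoters, was at 601 CPM at 0 h, 1335 and 919.6 CPM at 24 h with and without MDSCs, and 1365 and 1470.1 CPM at 72 h with and without MDSCs. H2afv, the gene of the second H2A.Z, was at 190.4 CPM at 0 h, 31.1 and 31.8 CPM at 24 h with and without MDSCs, and 316 and 426 CPM at 72 h with and without MDSCs, so both 24 h libraries lay far below all others. It was above 0 in 35.3% and 31.8% of the cells at 24 h with and without MDSCs, and in 95.9% and 97.8% at 72 h with and without MDSCs. From 0 h to the 24 h DC library the log2 ratio was -2.58 for H2afv and 0.61 for H2afz. The median over all genes in that comparison was 0.43, so the rise of H2afz there lay near the general shift.

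H2afx encodes H2A.X, which is phosphorylated around DNA breaks. It was at 98.4 CPM at 0 h, 122 and 93.9 CPM at 24 h with and without MDSCs, and 169 and 214 CPM at 72 h with and without MDSCs. H2afy, a gene of macroH2A, which carries a large non-histone domain, was at 335 CPM at 0 h, 265 and 219.9 CPM at 24 h with and without MDSCs, and 436 and 571 CPM at 72 h with and without MDSCs. Both were highest in the 72 h DC library. H2afj was at 415 CPM at 0 h, at 419 and 448 CPM at 24 h with and without MDSCs, and at 612 and 291 CPM at 72 h with and without MDSCs, and the 72 h libraries were the extremes in both directions. H3f3b and H3f3a, which encode the same H3.3 protein, were at 1120.0 and 1037 CPM at 0 h. H3f3b stood at 1443 and 1342 CPM at 24 h and at 836 and 1179 CPM at 72 h with and without MDSCs, and H3f3a at 815 and 837 CPM and at 735 and 1004 CPM in the same order. The 72 h DC+MDSC library was the lowest for both.

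**Figure D2:**
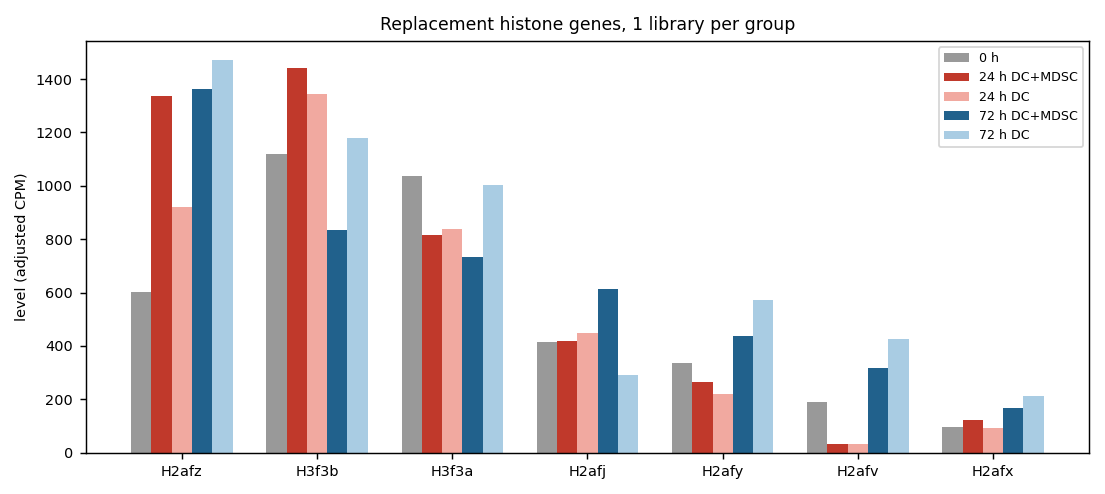
Level in adjusted CPM of the 7 replacement histone genes at 10 CPM or more, 1 bar per library (1 library per group, so no error bars). H2afv was at 31.1 and 31.8 CPM in the 24 h libraries and at 190.4 CPM or more in the others, and H2afj was at 612 CPM at 72 h with MDSCs against 291 CPM without.

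Set against 0 h, the 24 h DC library held 3.97 times the replication-dependent sum (log2 ratio 1.99), while the log2 ratio of the replacement sum was 0.04. All genes shifted too in this comparison, with a median log2 ratio of 0.43 over 4664 genes and of 0.73 over the 7006 genes counted below. Relative to 0.43 the log2 ratios of the 2 sums were 1.56 and -0.39. With a minimum of 10 CPM in 1 of the libraries, 13 replication-dependent genes could be counted, of which 11 were 2-fold or more higher at 24 h and 1, Hist3h2a, was lower, against a background of 40.9% of 7006 genes higher and 10.6% lower. Only Hist1h1c and Hist3h2a had reached 10 CPM at 0 h, so the other 11 entered through the 24 h library and had to be higher, and their count supports nothing. Of the 7 replacement genes 0 were higher and 1, H2afv, was lower (log2 ratio -2.58).

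The genes that led the sum differed between 24 h and 72 h. In DC co-cultures the replication-dependent sum was 543 CPM at 72 h, against 355 CPM at 24 h (log2 ratio 0.61, or 0.83 relative to the median of all genes), and in DC+MDSC co-cultures 485 CPM at 72 h, against 567 CPM at 24 h (log2 ratio -0.23). The second is 0.14 when centred on the median of all genes, which was -0.36, so its direction is not settled. The replacement sum had log2 ratios, not centred, of 0.41 in DC co-cultures and 0.01 in DC+MDSC co-cultures. In DC co-cultures 7 of 16 replication-dependent genes at the minimum were at least 2-fold higher at 72 h and 3 lower, against 15.5% and 20.8% of all genes. Of these, Hist3h2ba, Hist1h2bc and Hist1h1a had reached 10 CPM at 72 h alone, and Hist1h3a and Hist1h3e at 24 h alone. In DC+MDSC co-cultures 3 of 16 were higher and 6 lower, against 10.7% and 24.7%. There Hist1h2bc and Hist1h1a had reached 10 CPM at 72 h alone, and all 6 lower genes at 24 h alone. A gene that enters through the time where it is high can differ in that direction only, so these counts support nothing by themselves. The genes at 10 CPM or more at both times and past 2-fold were Hist1h1b, Hist1h2ap, Hist1h4i and Hist1h1e (higher) and Hist1h2bj (lower) in DC co-cultures, and Hist1h1d (higher) in DC+MDSC co-cultures. Of the 7 replacement genes, 3 were higher at 72 h in DC co-cultures, H2afv (log2 ratio 3.74), H2afy (1.38) and H2afx (1.19), and 1 in DC+MDSC co-cultures, H2afv (3.35).

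The 17 replication-dependent genes at 10 CPM or more in a co-culture library were grouped, after their values had been seen, by whether the libraries of both times overlapped. In 6 genes both 24 h libraries were above both 72 h libraries: Hist1h2ag, Hist1h2bj, Hist1h2bk, Hist1h3a, Hist1h3c and Hist1h3e. In 8 genes both 72 h libraries were above: the 5 H1 genes, Hist1h2ae, Hist1h2bc and Hist3h2ba. Hist1h2ap, Hist1h4i and Hist1h4d overlapped. In 3 of the 6 genes (Hist1h2bk, Hist1h3a and Hist1h3e) no 72 h library reached 10 CPM, and in 3 of the 8 (Hist1h1a, Hist1h2bc and Hist3h2ba) no 24 h library did. Among 7489 genes at the same minimum, 51.7% were higher in both 24 h libraries and 27.5% in both 72 h libraries. The annotated ends differed between the groups. Of the 6 genes higher at 24 h, 5 end within 100 bases of the stem-loop. Of the 8 genes higher at 72 h, 0 do. Of these 8, 5 run more than 100 bases past it and 3 have no stem-loop in the annotated end. Among the 3, Hist1h1b has no annotated 3′ untranslated region, that of Hist1h1a is 48 bases long and that of Hist1h2bc 742 bases. For Hist1h1b and Hist1h1a the annotation may stop before a stem-loop, so their ends cannot be placed by this distance. The count of 0 of 8 may thus rest partly on missing annotation. Without a minimum level the split was looser. Of the 21 genes that end within 100 bases, 11 were higher in both 24 h libraries and 5 in both 72 h libraries. These counts are near the shares of 51.7% and 27.5% among all genes at the minimum, so they do not set the 21 genes apart. Of the 22 with longer ends, 6 and 8 were higher at 24 h and at 72 h. A background without a minimum level is not given. In summed level, the genes that end within 100 bases were at 276 and 156 CPM at 24 h with and without MDSCs and at 122 and 161 CPM at 72 h. Those with longer ends were at 208 and 150 CPM at 24 h and at 233 and 251 CPM at 72 h. Whether the form of the transcript end, its capture or the gene class moved these values was not tested.

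Of the 9 back-to-back pairs, Hist1h2ag and Hist1h2bj was the pair with both genes at 10 CPM or more in a library. Both were higher at 24 h than at 72 h in both culture types. Across cells of a library, their natural log values had a Pearson r of 0.17 and 0.26 at 24 h with and without MDSCs (n = 2247 and 1562 cells) and of 0.03 and 0.11 at 72 h (n = 4942 and 1926 cells). The values share the adjustment of each cell and both genes are sparse. In the other pairs, r lay between -0.03 and 0.16. In the pairs of Hist1h2ah with Hist1h2bk and of Hist1h2ac with Hist1h2bc, the H2A gene stayed at 0.200 and 2.08 CPM or lower, while the H2B gene reached 13.4 and 15.5 CPM.

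With MDSCs present, the replication-dependent sum was higher at 24 h, and 1 gene, Hist1h2ap, made up much of the gap. The sum was 567 CPM with MDSCs, against 355 CPM without (1.60-fold, log2 ratio 0.68), and the replacement sum was 4431 against 3893 CPM (log2 ratio 0.19). Hist1h2ap held 49.1% of the gap in the replication-dependent sum. Without it the sum was 437 CPM with MDSCs, against 328 CPM without (log2 ratio 0.41). Hist1h2ap was 4.94-fold higher with MDSCs (log2 ratio 2.30), Hist1h1b had a log2 ratio of 1.66 and Hist1h1e of 1.10. These were the 3 of 14 replication-dependent genes at the minimum that were at least 2-fold higher, and 0 were lower, against 0.535% and 0.297% of 6726 genes. The call of Hist1h1e rests on the scale, since its log2 ratio was 0.99 with a total that leaves out ribosomal protein and mitochondrial genes and 0.97 in the authors' separate table of 24 h. The H3 genes did not follow, with log2 ratios of -0.09 for Hist1h3a, 0.41 for Hist1h3c and 0.10 for Hist1h3e. None of the 7 replacement genes passed 2-fold, and H2afz had the log2 ratio farthest from 0 (0.54).

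At 72 h other members stood out. The replication-dependent sum was 485 CPM with MDSCs, against 543 CPM without (log2 ratio -0.16), and the replacement sum 4469 against 5157 CPM (-0.21). Of 14 replication-dependent genes at the minimum, 0 were at least 2-fold higher with MDSCs and 3 were lower, against 2.08% and 5.52% of 6697 genes. They were Hist1h2ag (log2 ratio -2.33), Hist3h2ba (-2.24) and Hist1h3c (-1.68). All 3 passed 10 CPM through the 72 h DC library alone, so they had to be lower with MDSCs to differ, and their count supports nothing. Hist1h2bj had a log2 ratio of -0.99. H1 genes did not share this, as Hist1h1d had a log2 ratio of 0.72, Hist1h1c of 0.36 and Hist1h1e of 0.02. Of the 7 replacement genes H2afj alone passed 2-fold, at 612 CPM with MDSCs against 291 CPM without (log2 ratio 1.07), and the other 6 had log2 ratios between -0.50 and -0.11.

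**Figure D3:**
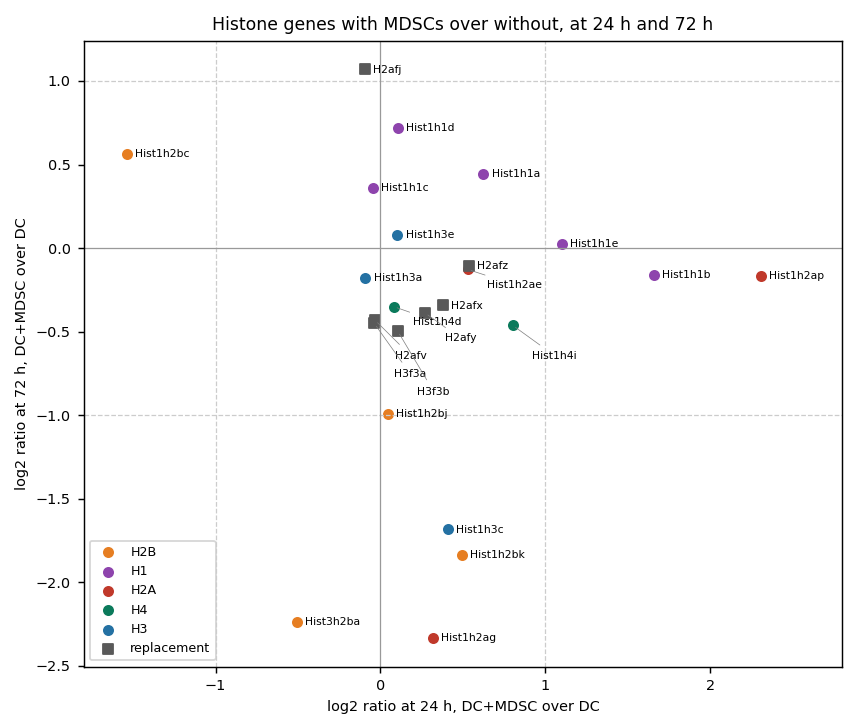
Log2 ratio of DC+MDSC over DC at 24 h (horizontal) and at 72 h (vertical) for the 17 replication-dependent genes (circles, coloured by class) and 7 replacement genes (squares), from 1 library per group. Dashed lines mark 2-fold. Hist1h2ap lies farthest right at 2.30, Hist1h2ag lowest at -2.33 and H2afj highest at 1.07.

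In single cells both classes differed in how widely they were found. A cell was above 0 for at least 1 replication-dependent gene in 46.3% (44.5 to 48.2) of cases at 0 h, in 92.2% (91.0 to 93.2) and 88.8% (87.1 to 90.3) at 24 h with and without MDSCs, and in 93.9% (93.2 to 94.5) and 93.9% (92.7 to 94.9) at 72 h with and without MDSCs. The median cell held a replication-dependent sum of 0 adjusted counts at 0 h, of 8 and 4 at 24 h with and without MDSCs, and of 6 and 7 at 72 h with and without MDSCs. Its replacement sum was 52 at 0 h, 67 and 59 at 24 h, and 67 and 79 at 72 h.

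Within each co-culture library, cells with more S phase or G2/M transcripts held more replication-dependent transcripts. The S phase list has 38 genes of DNA replication and the G2/M list 48 genes of mitotic entry, both standard cell cycle lists. On the natural log scale, Pearson r between the replication-dependent sum and the S phase sum was 0.04 at 0 h, 0.60 and 0.55 at 24 h with and without MDSCs, and 0.46 and 0.54 at 72 h. With the G2/M sum it was 0.09 at 0 h, 0.75 and 0.63 at 24 h, and 0.44 and 0.61 at 72 h. The replacement sum also followed the G2/M sum, with an r of 0.36 at 0 h, 0.50 and 0.45 at 24 h, and 0.55 and 0.70 at 72 h with and without MDSCs. At 72 h its r was thus above that of the replication-dependent sum. All cells of a library share its adjustment, and the 2 list sums had an r of 0.52 to 0.71 with each other in the co-cultures. When the cells of each library were ranked by the G2/M sum and parted into 3 sets (terciles), the highest tercile held 931 and 647 CPM of replication-dependent transcripts at 24 h with and without MDSCs, against 192 and 149.7 CPM in the lowest. At 72 h it held 623 and 758 CPM, against 297 and 269.7 CPM. At 0 h the values were 105 against 82.5 CPM. The ratio of highest to lowest tercile was 2.10 to 4.84 in the co-cultures for the replication-dependent sum, but 1.19 to 1.37 for the replacement sum. By the S phase sum it was 2.06 to 4.49 and 1.06 to 1.20. Single replacement genes differed from their sum. By G2/M the ratio of H2afx was 5.53 and 7.55 at 72 h with and without MDSCs. That of H2afz was 1.36 to 2.65 in the co-cultures, and that of H2afj 0.65 to 0.79.

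**Figure D4:**
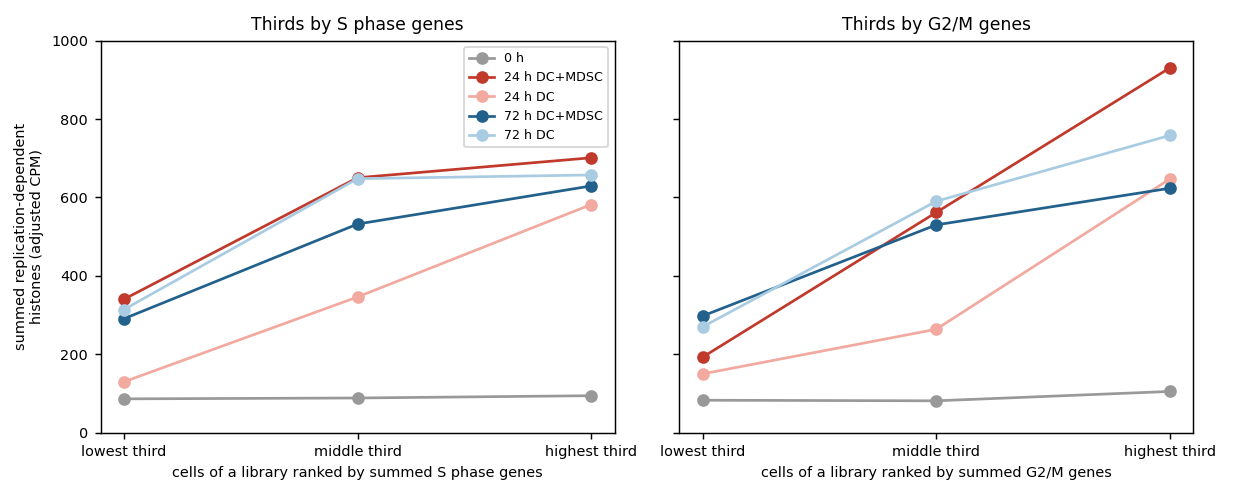
Summed replication-dependent histones (adjusted CPM) in the lowest, middle and highest tercile of cells of each library, ranked by summed S phase genes (left) or G2/M genes (right). Each line is 1 library. The 0 h line runs between 81.0 and 105 CPM, and all co-culture lines climb, up to 931 CPM at 24 h with MDSCs.

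The members differed in how closely they followed these lists. Of the replication-dependent genes, Hist1h2ap had the highest mean r over the 4 co-culture libraries, 0.39 with S phase and 0.52 with G2/M, followed by Hist1h1b with 0.35 and 0.42. Hist1h2bc, at -0.06 and -0.07, and Hist3h2ba, at -0.02 and 0.04, followed neither list. The replacement gene H2afz was closer to both lists than any of the 17 replication-dependent genes at the minimum, with a mean r of 0.60 and 0.61. H2afx had an r with G2/M of 0.60 and 0.64 at 72 h with and without MDSCs, but of 0.16 and 0.22 at 24 h. H2afj had a negative mean r with both lists (-0.14 and -0.21), though its r with S phase was 0.16 in the 72 h DC library. The mean r of H3f3a was 0.09 with S phase and 0.10 with G2/M, but its values were 0.30 and 0.29 in the 72 h DC+MDSC library and -0.05 and -0.09 in the 24 h DC+MDSC library. Values of low genes are sparse, and the part of level in this order was not tested.

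**Figure D5:**
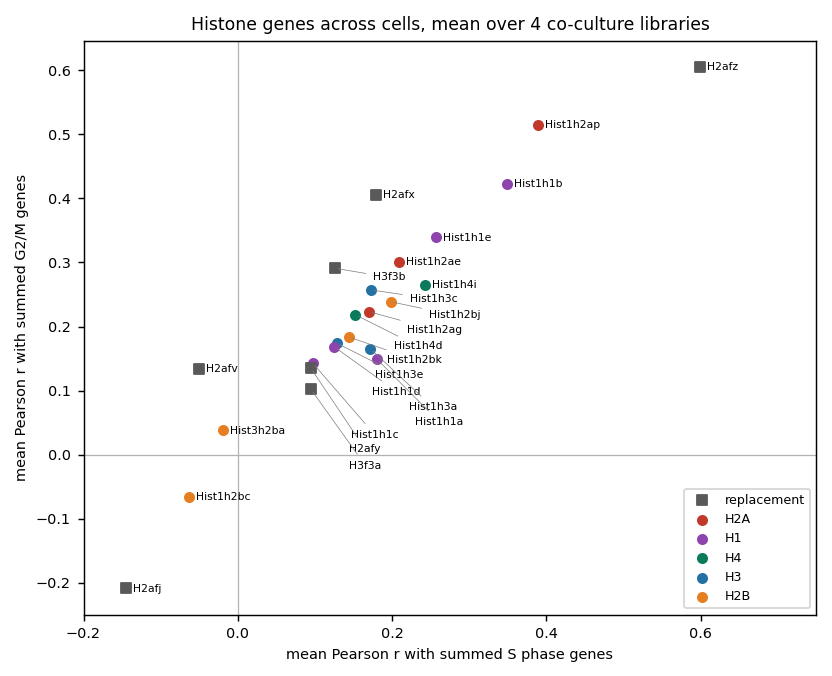
Pearson r across cells (natural log values) of each histone gene at 10 CPM or more in a co-culture library with the summed S phase genes (horizontal) and the summed G2/M genes (vertical), as the mean of 4 co-culture libraries. Squares are replacement genes and circles replication-dependent genes. H2afz lies at the upper right (0.60 and 0.61), H2afj at the lower left (-0.14 and -0.21).

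Among 7773 genes above 0 in at least 5% of the cells of each co-culture library, those most like the replication-dependent sum across cells were 2810417H13Rik (mean r 0.59) and Top2a (0.59), the gene of topoisomerase II alpha. Birc5, Hmgb2, Rrm2, Mki67, Stmn1, Cdk1, Fbxo5 and Ccna2 came next among non-members, with 0.52 for Birc5 and 0.45 for Ccna2. H2afz ranked 10 of 7773 (0.45), H2afx 90, H3f3b 195, H2afy 5795, H3f3a 5820, H2afv 6547 and H2afj 7586. Slbp, whose product binds the stem-loop, ranked 116 (0.24).

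The MDSC comparison at 24 h was set within cells of like cycle state, by terciles with common bounds over both libraries of a time. The highest G2/M tercile held 45.5% of the cells with MDSCs, against 15.7% without. Within the lowest, middle and highest G2/M tercile the log2 ratio of the replication-dependent sum was -0.32, -0.14 and 0.10, against 0.68 over all cells. With bounds set within each library it was 0.36, 1.09 and 0.52, so in the lowest and middle tercile the sign depends on how the bounds are set. Terciles cut within each library need not pair cells of like G2/M sum, so they do not compare cells of like cycle state. Within S phase terciles with common bounds the log2 ratio of the replication-dependent sum was 0.55, 0.55 and 0.22. Hist1h2ap was picked for its difference in these same libraries, so its terciles give no separate support. Its ratio stayed above 1 in every tercile. The log2 ratio was 1.75, 1.45 and 1.19 from the lowest to the highest G2/M tercile, and 2.87, 2.20 and 1.58 by S phase. In the highest G2/M tercile Hist1h2ap was at 220.3 CPM with MDSCs, against 96.6 CPM without. Hist1h1b by contrast had -0.26, 0.29 and 0.75 over the G2/M terciles, and Hist1h2ag -0.43, -0.49 and -0.48.

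At 72 h, members picked for their difference over all cells kept its direction in every tercile. The terciles part the same libraries, so this adds no separate support. Hist1h2ag and Hist1h3c had also reached 10 CPM through the 72 h DC library alone. Hist1h2ag had log2 ratios between -2.32 and -1.91 by G2/M and between -2.65 and -1.70 by S phase, and Hist1h3c between -1.75 and -1.49 and between -1.74 and -1.65. H2afj had 0.77 to 1.25 by G2/M and 0.76 to 1.47 by S phase, and Hist1h1d 0.56 to 1.38 and 0.53 to 0.95. The replication-dependent sum had 0.48, -0.08 and -0.23 from the lowest to the highest G2/M tercile, so its sign differed between terciles.

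Genes that make and carry replication-dependent histones were next set against 0 h, in a comparison where 40.9% of all genes were higher at 24 h and 10.6% lower. Of 15 genes of histone gene transcription and 3′ end processing, 14 reached the minimum and 11 were at least 2-fold higher at 24 h with DCs than at 0 h, with 0 lower. Their median log2 ratio was 1.69, against 0.73 over the 7006 genes at the same minimum, a larger set than the 4664 genes with a median of 0.43. Of the 11, Npat and Lsm11 reached 10 CPM at 24 h alone. Ncbp1, a subunit of the cap-binding complex, was at 62.2 against 13.6 CPM and Cstf2, a cleavage factor subunit, at 44.4 against 10.2 CPM. Slbp was at 113 CPM at 0 h, at 192 and 147 CPM at 24 h with and without MDSCs, and at 130.4 and 163 CPM at 72 h with and without MDSCs. Of the 11 chaperones of new H3 and H4, 6 were at least 2-fold higher at 24 h with DCs and 0 lower (median 1.30). Of the 6, Asf1b, Chaf1a, Chaf1b and Ipo4 reached 10 CPM at 24 h alone and had to be higher, which leaves Asf1a and Supt16 at the minimum in both libraries. Chaf1a, the large subunit of the CAF-1 assembly factor, was at 0.726 CPM at 0 h, at 75.4 and 56.2 CPM at 24 h with and without MDSCs, and at 29.2 and 38.3 CPM at 72 h. Asf1b, an H3-H4 chaperone, was at 4.09 CPM at 0 h, 59.6 and 34.8 CPM at 24 h and 57.3 and 59.6 CPM at 72 h. Ipo4, an importer of H3 and H4, was at 7.33 CPM at 0 h, 53.0 and 47.2 CPM at 24 h and 10.4 and 8.64 CPM at 72 h, so that it was high in both 24 h libraries and low in all others. Of the cell cycle lists, 28 of 36 S phase genes at the minimum were at least 2-fold higher and 0 lower, and 16 of 32 G2/M genes were higher and 3 lower. At 24 h alone 17 of the 28 and 15 of the 16 had reached 10 CPM, so these counts and medians support nothing by themselves.

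Of the genes that deposit replacement histones, 2 of 11 at the minimum were at least 2-fold higher at 24 h with DCs (median log2 ratio 0.44), Hira (22.4 against 5.61 CPM, so at the minimum at 24 h alone), of the complex that places H3.3, and Ruvbl1 (138 against 66.6 CPM). At 72 h against 24 h in DC co-cultures, 1 of 14 processing genes, 1 of 11 chaperones and 1 of 11 deposition genes were lower and 0 higher, while 36 of 48 G2/M genes were higher and 0 lower, against 15.5% of all genes higher and 20.8% lower. Of the 36, 16 had reached 10 CPM at 72 h alone, and the lower chaperone, Ipo4, at 24 h alone. In DC+MDSC co-cultures 4, 3 and 4 of the processing, chaperone and deposition genes were lower and 0 higher. Among all genes 24.7% were lower and 10.7% higher, so the lower counts are near the background. Of the 4 deposition genes, Hira and Ino80 had reached 10 CPM at 24 h alone. There 19 of 45 G2/M genes were higher and 0 lower, and 4 of the 19 had reached 10 CPM at 72 h alone. With MDSCs against without, 0 genes of these 3 histone lists passed 2-fold at 24 h or at 72 h, but 12 of 41 G2/M genes were higher and 1 lower at 24 h, against 0.535% and 0.297% of all genes. Of these, Nusap1, Kif11 and Hmmr had reached 10 CPM with MDSCs alone and Psrc1 without MDSCs alone, so their direction was fixed. That leaves 9 higher genes at the minimum in both libraries. Among genes of the 3 histone lists at 20 CPM or more, the largest ratio at 72 h was that of Ncbp2, at 86.0 CPM with MDSCs against 44.5 CPM without (log2 ratio 0.95).

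Some histone variants fall outside the symbol rule. Cenpa, the centromeric H3, was at 78.9 CPM at 0 h, at 19.9 and 7.45 CPM at 24 h with and without MDSCs, and at 239.8 and 308 CPM at 72 h with and without MDSCs. H1f0, the linker histone of non-dividing cells, was at 3.85 CPM at 0 h, at 11.4 and 8.44 CPM at 24 h with and without MDSCs, and at 15.1 and 54.4 CPM at 72 h with and without MDSCs (log2 ratio -1.85 at 72 h). Hjurp, the chaperone of Cenpa, had a log2 ratio of 0.83 with MDSCs at 24 h and of -1.02 at 72 h.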

How the data were processed

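Sorted cells were made into droplet libraries with 10x Genomics reagents, per the labels' protocols. The submitters' processing notes name Cell Ranger 2.0.1, Seurat and mm10, without roles. The authors deposited natural log values: after exp(value) - 1, 0 values were more than 1e-06 away from whole numbers. The method of their adjustment was not given in the sources used here. Their total per cell varied by 4.95% (coefficient of variation), so no depth, thinning, doublet call or count model was possible. The adjusted counts were summed per gene and library and scaled to 1000000 (CPM). Cells were assigned to libraries by the deposited annotation. The planned size rule was used: 10 CPM or more in either library and a ratio of 2 or more, in 5 comparisons. Shares of cells have exact 95% intervals. The rule was tested on simulated data. Levels are sums per library, so neither cells nor genes served as replicates.

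Members, gene lists and the grouping by time were chosen with earlier results of these data known. All members could be named; the values in all libraries are given for the 3 highest genes of each class, the replacement genes and those past 2-fold at 50 CPM with MDSCs. From the lists, those with the largest ratio at 20 CPM or more were named, and the 10 non-members most like the replication-dependent sum. Slbp, Cenpa, Hjurp, Hist1h2bk, Hist3h2a and other genes were added after their values were seen. Alternatives were the mean natural log value, centring, another total, other minimum levels and folds, the separate tables of each time, and sums without members whose class is uncertain. Stem-loops and motifs were searched with Python 3.11.15 in GENCODE M21 transcripts and RefSeq promoters. Numpy 2.4.6, scipy 1.17.1 and matplotlib 3.10.9 were used.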

Additional observations from a re-analysis of the deposited data

Results flagged for a closer look

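Among members that reached 10 CPM with or without MDSCs at 24 h and again at 72 h, there were 7 whose ratio with MDSCs over without was above 1 at 1 time and below 1 at the other, with log2 ratios at least 1 apart. The difference between the times was not tested, since each group is 1 library. The share of all genes that meet the same rule is not given, so the count cannot be read against a background. At 72 h Hist1h2ag, Hist1h2bj and Hist1h3c reached 10 CPM without MDSCs alone, so their ratio at that time could only lie below 1. H2afj had a log2 ratio of -0.10 at 24 h and 1.07 at 72 h. Hist1h1b had 1.66 and -0.16, Hist1h2ap 2.30 and -0.16, and Hist1h4i 0.80 and -0.46. Hist1h2ag had 0.32 at 24 h and -2.33 at 72 h, Hist1h2bj 0.04 and -0.99, and Hist1h3c 0.41 and -1.68. With a total that leaves out ribosomal protein and mitochondrial genes, the 24 h value of Hist1h2bj was -0.07.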

How the results depend on the processing

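No paired analysis was possible because each group is 1 library. Of 264 alternative values of 52 results, 0 changed the direction of a called result, 225 stayed within the set limits and 39 moved. Without a minimum level, counts of replication-dependent genes higher and lower were 41 and 5 (24 h DC over 0 h), 14 and 9 (72 h over 24 h, DC), 10 and 14 (72 h over 24 h, DC+MDSC), 8 and 2 (MDSC at 24 h) and 4 and 6 (MDSC at 72 h), and replacement genes higher at 72 h with MDSCs were 2. At 50 CPM the counts were 0 and 0 (24 h DC over 0 h), 4 and 0 (72 h over 24 h, DC), 0 and 0 (DC+MDSC), and 0 lower with MDSCs at 72 h. At 1.5-fold, replacement genes were 1 higher and 2 lower (24 h DC over 0 h), 1 lower (72 h over 24 h, DC) and 2 higher and 1 lower (DC+MDSC), and 1 replication-dependent gene was higher with MDSCs at 72 h. Centring gave 2 replacement genes lower (24 h DC over 0 h) and 2 higher (72 h over 24 h, DC+MDSC). Leaving ribosomal protein and mitochondrial genes out of the total gave 17 replication-dependent genes higher and 2 lower at 24 h against 0 h. Levels from mean natural log values gave 0 lower there, 1 lower with MDSCs at 72 h, and a replication-dependent over replacement ratio at 0 h of 0.0146 in place of 0.0235. Cells with a replication-dependent sum of 3 or more were 14.0% at 0 h, 76.8% and 65.2% at 24 h and 75.4% and 77.8% at 72 h with and without MDSCs. With bounds set within each library, the lowest S phase tercile gave a log2 ratio of 1.39 at 24 h, and the lowest and middle G2/M terciles gave 0.36 and 1.09 where common bounds gave -0.32 and -0.14. The share of all genes past each of these settings is not given, so the counts in this paragraph cannot be read against a background. The cause of these moves was not tested, beyond the number of genes a minimum admits. The 30 values without cells that hold a counted marker of another type, an alternative chosen after seeing the data, stayed within the limits. So did the 12 values from the separate tables. Depth is unknown, so a low level may hold few molecules.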
